A study of Homo sapiens with 10 samples.

Results

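The genes examined here write, erase or process cytosine methylation: DNMT1, DNMT3A, DNMT3B and DNMT3L, the dioxygenases TET1, TET2 and TET3, and the glycosylase TDG. They were taken by symbol, and all 8 were found among the 55841 gene identifiers of the deposited counts. Total RNA of human embryonic stem cells, of a line labelled HES9 and grown on matrigel in mTESR1, was sequenced in 10 libraries. Of these, 5 came from the general population, which was not sorted, and 5 from the HHH population, sorted by flow cytometry for cells with high GCTM-2, high CD9 and high EPCAM. Batch 1 held 2 libraries of each population and batch 2 held 3 of each. The study's text names its line WA09, and its design text mentions a protein kinase C inhibitor that no label carries, so neither the line's name nor any treatment could be settled. All libraries are of the same line, and nothing in the labels says whether the replicates were separate cultures, so p-values measure the spread between these libraries, which may be technical.

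DNMT3A and DNMT3B place methyl groups on unmethylated DNA, and DNMT1 copies the pattern onto the new strand after replication. DNMT3L has no catalytic activity and stimulates the de novo enzymes. TET enzymes oxidise 5-methylcytosine stepwise, using oxygen, iron and 2-oxoglutarate, and TDG excises the most oxidised forms so that base excision repair can restore an unmodified cytosine. Human pluripotent cells in conventional culture are known for high DNMT3B and TET1.

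The libraries held 47242595 to 78503395 counts. The first principal component carried 58.3% of the variance, 94.1% of which lay between batches, and the second carried 11.7%, with 91.2% between populations. Identifiers with no match in the annotation used for symbols took 16.3 to 20.3% of the counts in batch 1 and 7.44 to 10.6% in batch 2. Of 9 markers of undifferentiated stem cells all were expressed, among them POU5F1 at 516 CPM in general and 570 in HHH. CPM are counts scaled by the library size after TMM, with 1 count standing for 0.0153 to 0.0229 CPM. The mRNA of the sorting antigen EPCAM was 148 ± 37.2 CPM (SD, n = 5) in general and 196 ± 42.0 in HHH, a log2 fold change of 0.41 (edgeR adjusted p = 0.00645), and that of CD9 gave 0.29 (adjusted p = 0.195).

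In GRCh38 coordinates, DNMT1 (ENSG00000130816) lies at chr19:10133342-10231286 on the minus strand, DNMT3A (ENSG00000119772) at chr2:25227855-25342590 on the minus strand, DNMT3B (ENSG00000088305) at chr20:32762385-32809359 on the plus strand and DNMT3L (ENSG00000142182) at chr21:44246339-44262216 on the minus strand. TET1 (ENSG00000138336) lies at chr10:68560337-68694487, TET2 (ENSG00000168769) at chr4:105145875-105279816, TET3 (ENSG00000187605) at chr2:73984910-74108176 and TDG (ENSG00000139372) at chr12:103965822-103988874, all on the plus strand. Counts are per gene, and how they treat strand and reads shared between genes was not given in the sources used here. DNMT3L shares 13% of its exonic bases with DNMT3L-AS1 on the other strand, TET3 shares 3.01% with ENSG00000235499 and DNMT1 shares 0.54% with S1PR2. A processed copy, TDGP1, had 613 to 1214 counts in each library, so reads could be split between it and TDG, and the TDG values are uncertain to that extent.

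Promoter sequence was available from RefSeq (GRCh38.p14) for 7 of the 8 genes. Shown are the bases before the start of TET1, the most abundant TET gene in these cells, and of TET3 and TDG, the genes whose levels differed between the populations in batch 2. Each is written 5′ to 3′ on the plus strand with every CG dinucleotide, the substrate of these enzymes, in capitals. The TET1 stretch is chr10:68560087-68560336, that of TET3 is chr2:73984660-73984909 and that of TDG is chr12:103965622-103965821, which stops short of the RefSeq start to stay outside the transcript as GENCODE annotates it.
TET1: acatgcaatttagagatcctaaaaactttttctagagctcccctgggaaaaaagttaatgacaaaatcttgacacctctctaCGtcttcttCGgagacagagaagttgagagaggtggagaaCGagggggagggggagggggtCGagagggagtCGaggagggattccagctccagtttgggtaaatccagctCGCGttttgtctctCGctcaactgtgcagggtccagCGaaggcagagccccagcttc
TET3: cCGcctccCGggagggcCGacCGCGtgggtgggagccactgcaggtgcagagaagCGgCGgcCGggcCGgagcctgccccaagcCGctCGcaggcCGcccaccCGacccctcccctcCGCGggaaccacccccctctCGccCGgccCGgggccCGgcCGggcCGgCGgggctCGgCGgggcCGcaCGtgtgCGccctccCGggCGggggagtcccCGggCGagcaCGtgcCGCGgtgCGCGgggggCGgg
TDG: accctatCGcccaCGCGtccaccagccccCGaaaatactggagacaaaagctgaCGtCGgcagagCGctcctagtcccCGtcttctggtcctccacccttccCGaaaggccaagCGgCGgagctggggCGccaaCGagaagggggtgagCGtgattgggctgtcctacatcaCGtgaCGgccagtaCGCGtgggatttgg
In the 250 bases before the RefSeq start, TET3 had 37 CG and TDG had 22, while TET1 had 9. Among all 34943 windows of that length in the RefSeq table, 93.9% held a CG on either strand, the motif being its own reverse complement. At least as many as TET3 were held by 3.99% of windows, at least as many as TDG by 28%, and at least as many as TET1 by 54%. The same count was 12 for DNMT3A and 10 for TET2, and it was 21 for DNMT1 and 3 for DNMT3B, whose RefSeq starts lie 36333 and 17467 bases from the first base that GENCODE annotates. Promoter methylation was not measured, so these are descriptions of the reference sequence.

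Levels can be compared between genes only per length. Dividing by exonic length in GENCODE 44, DNMT3B was at 174 ± 27.0 RPKM (SD over 10 libraries), with a lowest library of 129 and a highest of 213, and no other gene of the group overlapped it. TDG followed at 16.1 ± 2.98 RPKM, TET1 at 13.1 ± 2.33, DNMT1 at 9.01 ± 1.78 and DNMT3A at 8.92 ± 0.841. Neighbours among these 4 overlapped in their ranges: 12.5 to 20.5 for TDG, 9.72 to 15.9 for TET1, 6.35 to 11.5 for DNMT1 and 7.88 to 10.4 for DNMT3A. TET3 stood lower, at 1.1 ± 0.264 RPKM with a range of 0.802 to 1.5, above TET2 at 0.484 ± 0.130 with a range of 0.254 to 0.624. DNMT3L was lowest at 0.0374 ± 0.0224 RPKM. The order of the middle genes depended on the gene model. In the deposited RPKM values DNMT3A was at 17.8, TDG at 16.2, DNMT1 at 13.4, TET1 at 12.9 and TET3 at 2.31. Set against the counts, those values imply a length of about 6.96 kb for DNMT3A where GENCODE 44 gives 13.8 kb, and about 6.13 kb for TET3 where it gives 12.9 kb. DNMT3B stayed highest (248 deposited RPKM), and TET3, TET2 and DNMT3L stayed lowest in that order.

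**Figure D1:**
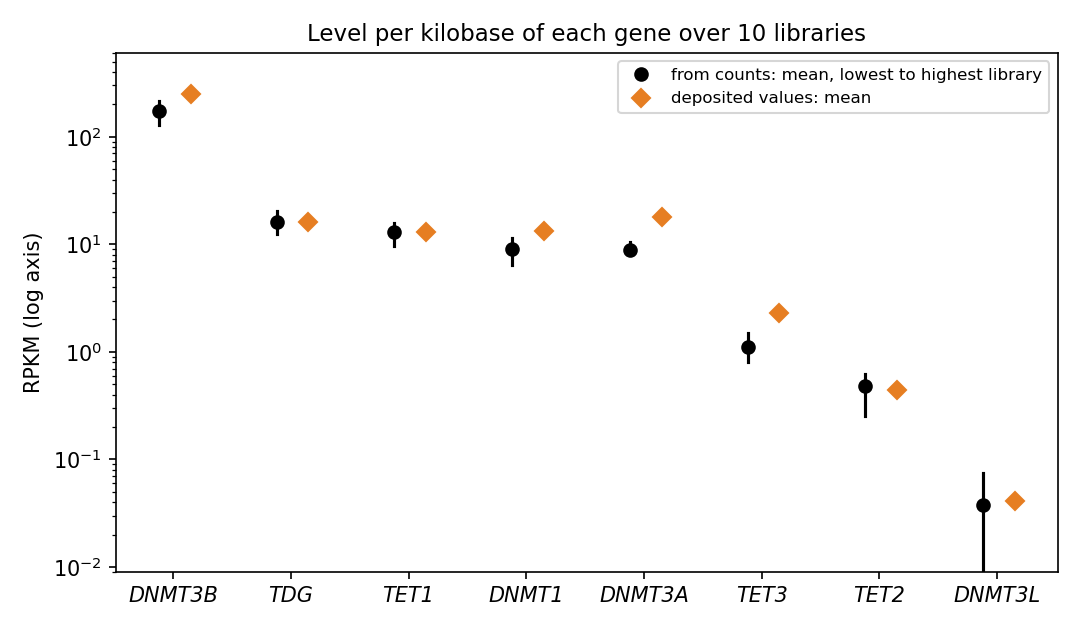
Level of each gene per kilobase (RPKM, log axis) over the 10 libraries; circles are means from the counts and GENCODE 44 lengths, vertical lines run from the lowest to the highest library, and diamonds are means of the deposited values. DNMT3B lies at 174 RPKM, more than any other gene here, and DNMT3L, whose lowest library is at 0 and off the axis, at 0.0374.

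Within the TET family, TET1 made up 87.7 to 90.3% of the summed RPKM in general and 89.0 to 90.2% in HHH, and TET2 made up 2.68 to 3.61% and 2.33 to 3.87%. DNMT3B made up 89.2 to 92.2% of the sum of DNMT1, DNMT3A and DNMT3B in general and 89.4 to 91.0% in HHH. Over both batches together these ranges overlapped, but within a batch some did not. The TET1 share was 89.7 to 90.3% in general and 89.0 to 89.3% in HHH of batch 1, and 87.7 to 88.8% in general and 89.4 to 90.2% in HHH of batch 2. The TET3 share was 6.48 to 7.66% in general and 7.86 to 8.37% in HHH of batch 1, and 7.73 to 8.71% in general and 6.08 to 6.70% in HHH of batch 2. In these libraries HHH had a lower TET1 and a higher TET3 share in batch 1 and the opposite in batch 2. The shares are parts of the same sum, so the TET1 and TET3 shifts are not separate observations. With 2 libraries of each population in batch 1, ranges can separate without a difference between the populations. The DNMT3A share was 3.77 to 3.83% in general and 4.24 to 4.55% in HHH of batch 2. The ratio of DNMT3B to DNMT3A RPKM was 15.7 and 16 in general and 15.3 and 16.2 in HHH of batch 1, and 23.8 to 24.5 in general and 19.9 to 21.4 in HHH of batch 2. Within batch 2 the populations did not overlap in this ratio. Neither the shares nor the ratio were tested. The shares and ratios use GENCODE 44 lengths.

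The comparison the study was built on asks how the sorted HHH fraction differs from the culture as a whole. None of the 7 genes that passed the filter on low counts of this group differed at an adjusted p under 0.05 in the fit of both batches by edgeR's quasi-likelihood test with batch as a term, 0 of 7, where 5.83% of all 23552 tested genes did. At an unadjusted p under 0.05 the count was 1 of 7, TET3, against 20.9% of all genes. The count of passing genes was also 0 by DESeq2, by limma with voom and by limma on the deposited values, with 1, 1 and 2 at an unadjusted p under 0.05, and it was 0, with 3 unadjusted, in a fit blocked on replicate number. In the blocked fit the population difference rested on replicate 2 of batch 1 and the 3 replicates of batch 2. The other batch 1 libraries had no partner of the same number. The median log2 fold change, HHH over general, was -0.12 over the 7 genes and 0.016 over all genes. These are bulk libraries, and fewer cells expressing a gene and less RNA of it per cell cannot be told apart.

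**Figure D2:**
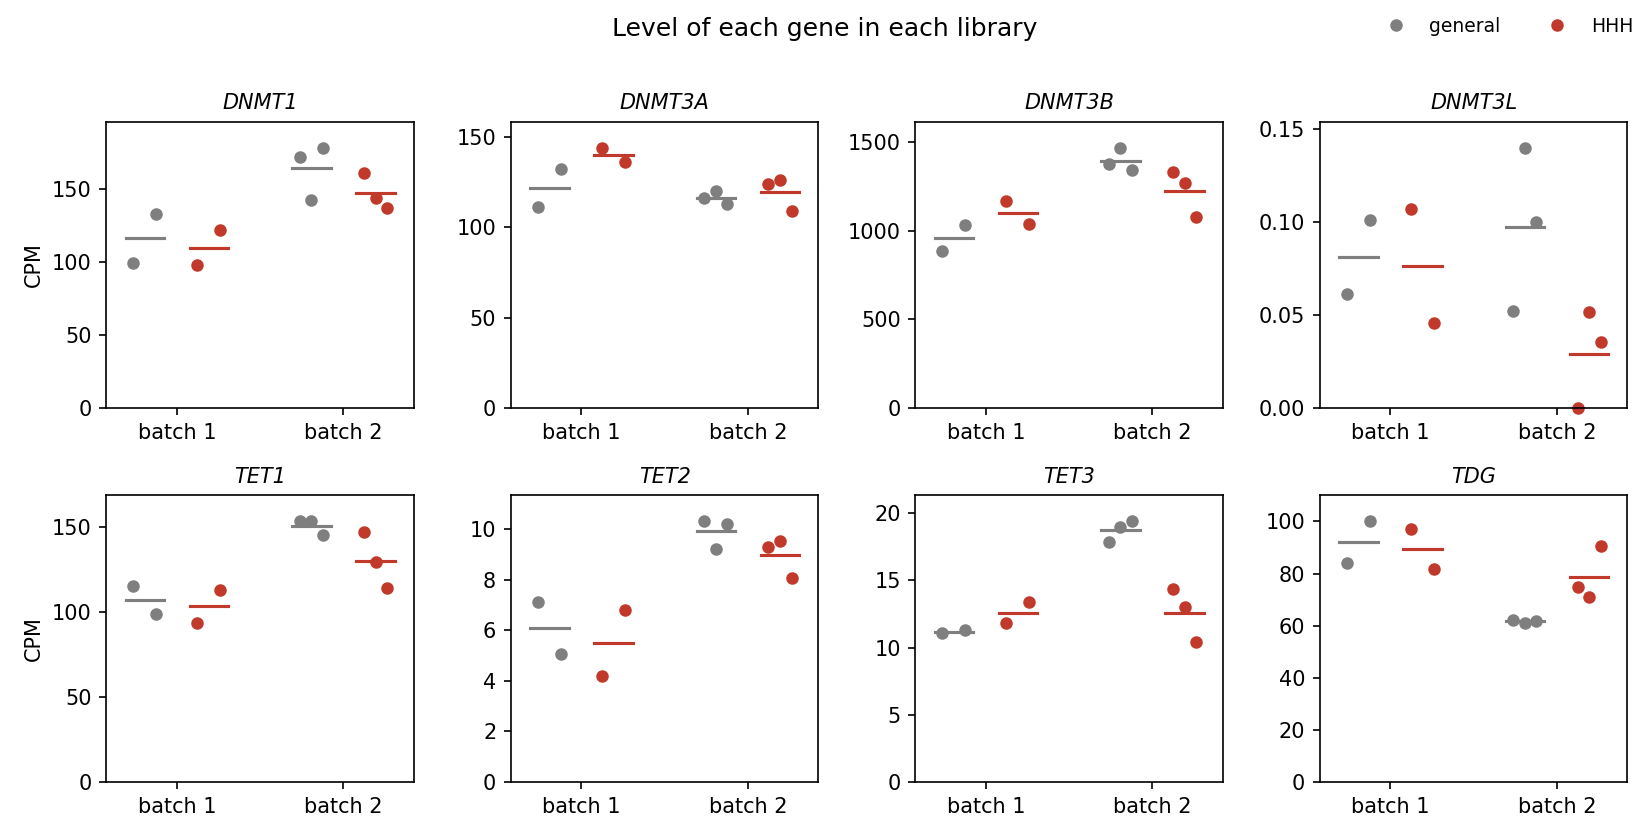
CPM of each gene (y axis, starting at 0, on a scale of its own) in each library, by batch, with general in grey and HHH in red; points are libraries and bars are means. For TET3 the 3 HHH libraries of batch 2 lie at 10.4 to 14.4 CPM, below the 3 general ones at 17.9 to 19.4.

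DNMT1, the maintenance enzyme, was at 99.2 and 133 CPM in the general libraries of batch 1 and at 172, 142 and 178 in those of batch 2. In HHH it was at 97.6 and 122 CPM in batch 1 and at 161, 144 and 137 in batch 2. The populations overlapped in both batches. The log2 fold change was -0.12 ± 0.0996 (SE; 95% interval -0.33 to 0.092; adjusted p = 0.522).

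DNMT3A, a de novo enzyme, was at 111 and 132 CPM in general and 144 and 136 in HHH of batch 1. In batch 2 it was at 116, 120 and 113 CPM in general and 124, 126 and 109 in HHH. Both HHH libraries of batch 1 lay above both general ones, and in batch 2 the populations overlapped. The log2 fold change was 0.11 ± 0.0755 (95% interval -0.055 to 0.27; adjusted p = 0.448).

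DNMT3B, the de novo enzyme with the highest level, was at 887 and 1034 CPM in general and 1164 and 1036 in HHH of batch 1. In batch 2 it was at 1372, 1466 and 1340 CPM in general and 1331, 1269 and 1076 in HHH. HHH was thus above general in all libraries of batch 1 and below it in all libraries of batch 2, by margins as small as 1034 against 1036 and 1331 against 1340. The log2 fold change over both batches was -0.033 ± 0.0980 (95% interval -0.24 to 0.18; adjusted p = 0.887), and within the batches it was 0.19 (adjusted p = 0.605) and -0.19 (adjusted p = 0.249).

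DNMT3L was removed by the filter on low counts: it had 4 and 6 in general and 5 and 2 in HHH of batch 1, and 3, 8 and 6 in general and 0, 3 and 2 in HHH of batch 2. A count of 0 allows up to 3 counts, which in that library is 0.0515 CPM. The highest library, a general one, stood at 0.140 CPM, and both populations were at or near the floor, so no fold is given. In a fit without the filter its adjusted p was 0.532 in edgeR.

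TET1 was at 115 and 98.5 CPM in general and 93.4 and 113 in HHH of batch 1, and at 153, 153 and 145 in general and 147, 129 and 114 in HHH of batch 2. The populations overlapped in both batches. The log2 fold change was -0.15 ± 0.0866 (95% interval -0.33 to 0.039; adjusted p = 0.357). In batch 2 alone it was -0.22 ± 0.0969 with an adjusted p of 0.154 in edgeR.

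TET2 was at 7.13 and 5.05 CPM in general and 4.18 and 6.78 in HHH of batch 1, and at 10.3, 9.22 and 10.2 in general and 9.27, 9.54 and 8.08 in HHH of batch 2. The log2 fold change was -0.15 ± 0.129 (95% interval -0.43 to 0.13; adjusted p = 0.546). The populations overlapped in both batches, and the levels were the lowest of the tested genes.

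TET3 was at 11.1 and 11.3 CPM in general and 11.8 and 13.4 in HHH of batch 1. In batch 2 it was at 17.9, 19.0 and 19.4 CPM in general and 14.4, 13.0 and 10.4 in HHH. The HHH libraries lay above the general ones in batch 1 and below them in batch 2, with no overlap in either batch, and the HHH mean was 12.6 ± 1.13 CPM (SD, n = 2) in batch 1 and 12.6 ± 2.06 (n = 3) in batch 2. Over both batches the log2 fold change was -0.29 ± 0.133 (95% interval -0.57 to -0.0015), with an adjusted p of 0.237 in edgeR.

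TDG was at 84.1 and 100 CPM in general and 96.9 and 81.6 in HHH of batch 1, and at 62.1, 61.1 and 61.8 in general and 74.8, 70.9 and 90.7 in HHH of batch 2. The populations overlapped in batch 1 and did not in batch 2, where all 3 HHH libraries were higher. The log2 fold change over both batches was 0.19 ± 0.0984 (95% interval -0.016 to 0.40; adjusted p = 0.279).

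In batch 2 alone, 2 of 7 genes passed, where 13.2% of 24025 tested genes did. TET3 was lower in HHH, by -0.58 ± 0.113 on the log2 scale (95% interval -0.83 to -0.34; 0.667-fold; edgeR adjusted p = 0.00554), and TDG was higher, by 0.35 ± 0.0951 (95% interval 0.14 to 0.55; 1.27-fold; adjusted p = 0.0319). In batch 1 alone, with 2 libraries of each population, 0 of 7 passed in edgeR, where 0.573% of genes passed. An unadjusted p under 0.05 was reached there by 0 of 7, against 12.5% of all genes. There TET3 stood at 0.16 (95% interval -0.18 to 0.49) and TDG at -0.051 (95% interval -0.34 to 0.24). The difference between the batches was tested as an interaction, in which 0 of 7 genes passed in edgeR, where 0.777% of all genes did. At an unadjusted p under 0.05 the interaction count was 3 of 7, against 18.9% of all genes. For TET3 the HHH change was lower in batch 2 than in batch 1 by -0.74 ± 0.184 (edgeR adjusted p = 0.0816), and DESeq2 gave an adjusted p of 0.0162 for it. The adjusted p of TDG (0.40 ± 0.167) was 0.221 and that of DNMT3B (-0.38 ± 0.170) was 0.246.

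**Figure D3:**
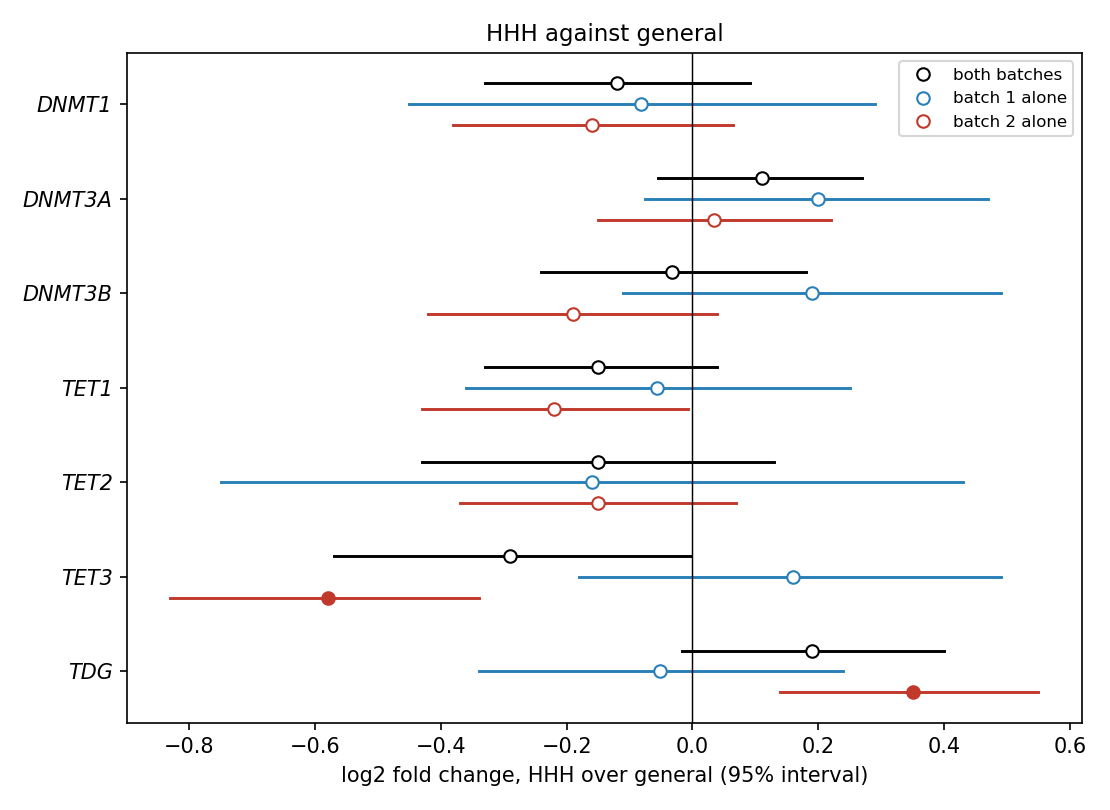
Log2 fold change of HHH over general (x axis) for the 7 tested genes, in both batches together (black), batch 1 alone (blue) and batch 2 alone (red); lines are 95% intervals and filled circles have an adjusted p under 0.05. The filled circles are TET3 at -0.58 and TDG at 0.35 in batch 2.

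The TET3 difference in batch 2 passed under all 18 alternative settings that were run, with log2 fold changes from -0.69 to -0.46. That of TDG passed under 12 of 18 and ranged from 0.21 to 0.42. It was lost once the libraries were corrected for GC content (0.21, adjusted p = 0.116), under scaling by library size only (0.27, adjusted p = 0.0831), and when any of the 3 general libraries was left out (0.35, 0.34 and 0.35, adjusted p = 0.0902, 0.0629 and 0.101 without replicate 1, 2 and 3), where the log2 fold change hardly differed from that of all 6 libraries. The longest transcript of TDG has a GC content of 39%, against a median of 47.9% over tested genes, and that of TET3 has 53.2%. The GC removal together with the replicate block also left TDG short of the threshold (0.21, adjusted p = 0.0700), and under that setting TET1 passed instead (-0.32, adjusted p = 0.0257). HHH replicate 3 was the library with the lowest TET1, TET2 and TET3 and the highest TDG in batch 2 among HHH. Without it the log2 fold changes were -0.46 for TET3 (adjusted p = 0.00991) and 0.24 for TDG (adjusted p = 0.0467).

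**Figure D4:**
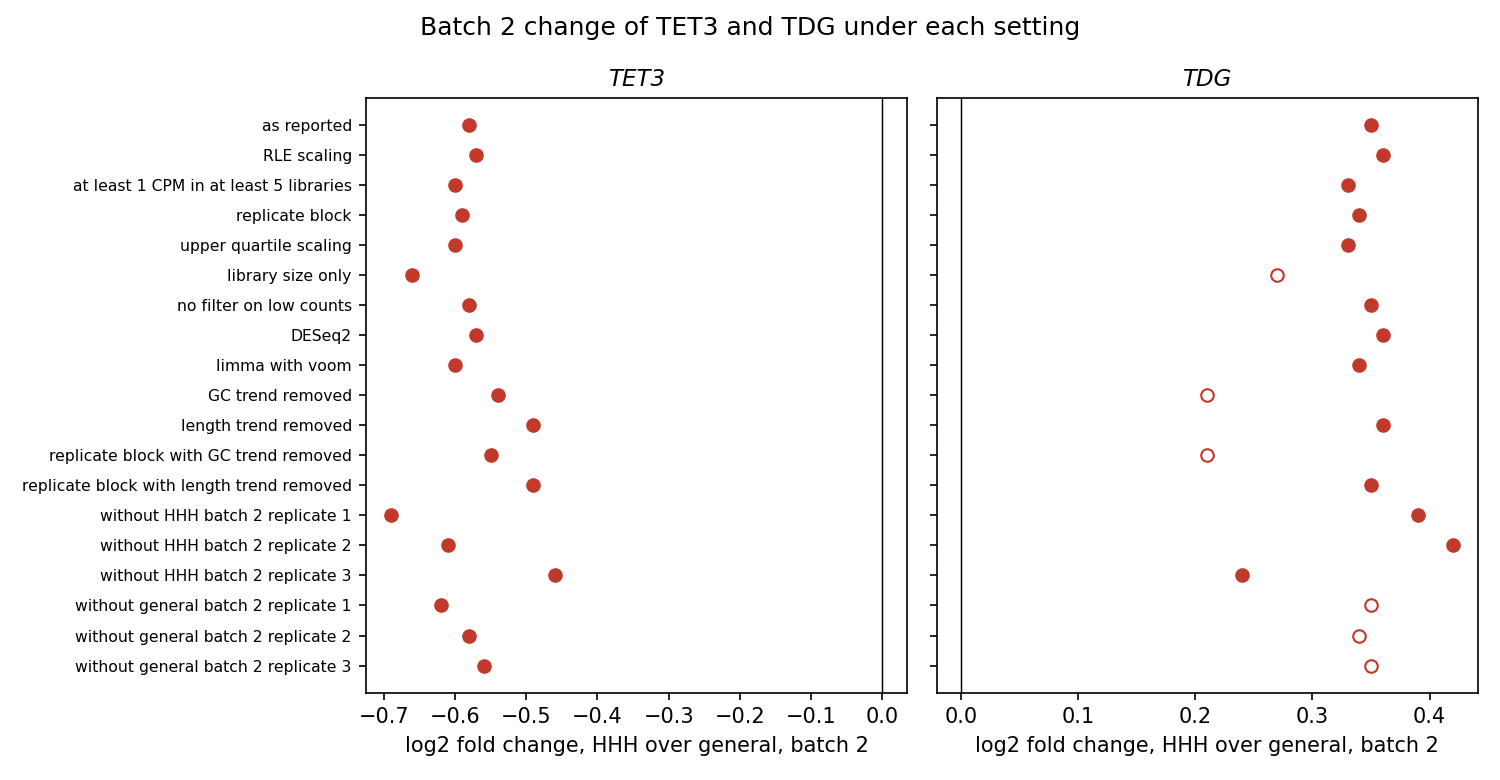
Log2 fold change of HHH over general in batch 2 (x axis) for TET3 and TDG as reported and under each of 18 other settings (rows); filled circles have an adjusted p under 0.05. TET3 lies between -0.69 and -0.46 in every row and is filled throughout, whereas TDG lies between 0.21 and 0.42 and is open in 6 rows.

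The batches differed for most of these genes. Between batch 2 (6 libraries) and batch 1 (4 libraries), 6 of 7 passed in edgeR, where 47.9% of all genes did, and the median absolute log2 fold change was 0.38 over the 7 genes and 0.32 over all genes. The 3 TET genes, DNMT1 and DNMT3B were higher in batch 2 in this fit, which gives both populations the same batch change. For TET3 the general mean was 11.2 CPM in batch 1 and 18.8 in batch 2. The HHH mean of TET3 was 12.6 CPM in each batch, so its rise was seen in general and not in HHH. TET2 differed most, from 5.78 ± 1.4 CPM (SD, n = 4) to 9.44 ± 0.810 (n = 6), a log2 fold change of 0.71 ± 0.135 (adjusted p = 7.21e-04), and the batches did not overlap. DNMT1 gave 0.46 ± 0.103 (adjusted p = 0.00213), TET1 0.41 ± 0.0894 (adjusted p = 0.00173), DNMT3B 0.34 ± 0.101 (adjusted p = 0.0119) and TET3 0.37 ± 0.137 (adjusted p = 0.0383). TDG was lower in batch 2, by -0.38 ± 0.0997 (adjusted p = 0.00607), and DNMT3A gave -0.15 ± 0.0768 (adjusted p = 0.134). What distinguishes the batches is not stated in the labels. The call of TET3 rested on single libraries: it was lost without general replicate 1 or 2 of batch 1 (0.27, adjusted p = 0.151, and 0.28, adjusted p = 0.159), without any general replicate of batch 2 (0.34 to 0.36, adjusted p = 0.0658 to 0.0726) and without HHH replicate 1 of batch 2 (0.36, adjusted p = 0.0731). Without general replicate 1 of batch 1, DNMT3B was at 0.26 (adjusted p = 0.0562) and DNMT3A passed, at -0.21 (adjusted p = 0.0356). With a trend in transcript length removed, TET3 was at 0.12 (adjusted p = 0.446) and DNMT3A at -0.35 (adjusted p = 0.00138).

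**Figure D5:**
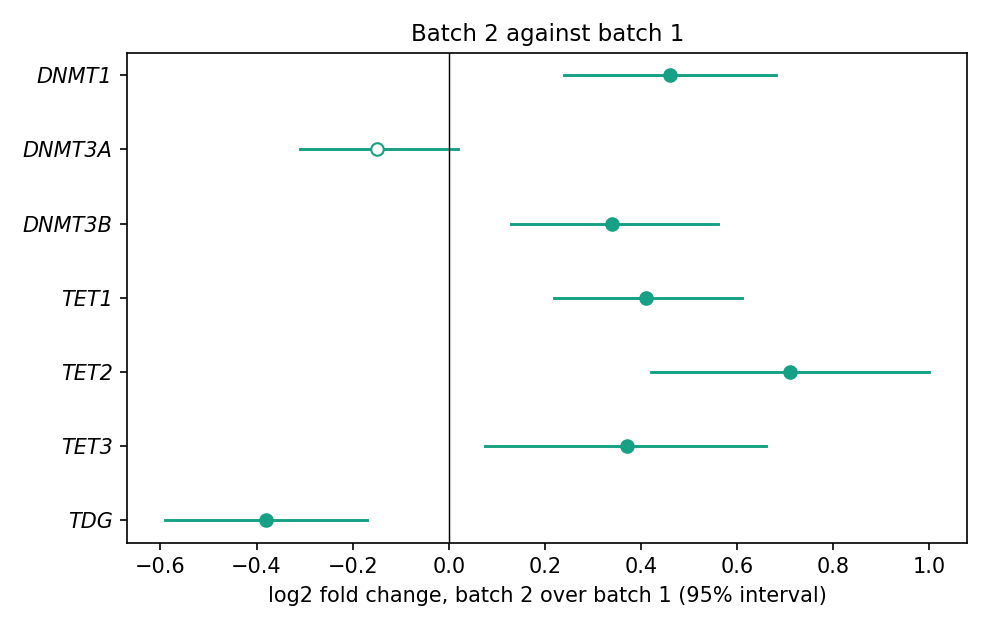
Log2 fold change of batch 2 over batch 1 (x axis) for the 7 tested genes, from the fit with population as a term; lines are 95% intervals and filled circles have an adjusted p under 0.05. TET2 lies farthest to the right at 0.71, TDG lies to the left at -0.38, and DNMT3A is the open circle at -0.15.

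The genes that act with these enzymes were counted from lists, in the fit of both batches, where 5.83% of all genes passed. Of 9 tested partners of maintenance methylation, 1 was lower in HHH and 0 were higher: ZBTB24, a zinc finger protein mutated in the ICF immunodeficiency syndrome that also follows loss of DNMT3B, fell from 57.9 ± 6.58 to 45.2 ± 3.21 CPM (log2 fold change -0.35 ± 0.0852, adjusted p = 0.0239). UHRF1, which brings DNMT1 to hemimethylated DNA, had no matching identifier and is not analysed here. Of 17 factors that direct methylation or protect from it, 1 was higher and 1 was lower. PRDM14, a transcription factor of pluripotent and germ cells, fell from 74.1 ± 29.4 to 36.5 ± 13.1 CPM (-1.0 ± 0.0715, adjusted p = 1.58e-06). CXXC5, which binds unmethylated CpG through its CXXC domain, rose from 57.8 ± 17.8 to 73.4 ± 22.3 CPM (0.35 ± 0.0705, adjusted p = 0.00875). DESeq2 and limma with voom called both as well, and limma on the deposited values called PRDM14 and not CXXC5. These 3 genes also passed in batch 2 alone, whose libraries are among those of the fit, at -0.52 for ZBTB24, -1.06 for PRDM14 and 0.34 for CXXC5. The median log2 fold changes of the 2 lists were -0.088 and -0.038, against 0.016 over all genes.

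No gene passed in edgeR in the other lists of such genes. Their counts at an unadjusted p under 0.05 stand beside 20.9% of all genes. Of 14 genes listed under base excision repair, 0 passed and 1 had an unadjusted p under 0.05, NEIL3 (0.26, adjusted p = 0.118). Another list held 9 genes, readers of methylated CpG and their relatives MBD3, MBD5 and MBD6. Of these 9, 0 passed and 1 had an unadjusted p under 0.05, MBD2 (-0.22, adjusted p = 0.172). A list on cosubstrate metabolism held 22 genes: those around S-adenosylmethionine and 2-oxoglutarate, enzymes of succinate and fumarate, and ascorbate transporters. Of these 22, 0 passed and 5 had an unadjusted p under 0.05, IDH1 having the smallest (0.24, adjusted p = 0.155). OGT, which binds TET proteins, and its partner HCFC1 had 0 of 2 passing and 0 at an unadjusted p under 0.05 (HCFC1 -0.20, adjusted p = 0.431), and TRDMT1, a relative of the DNMT genes that methylates tRNA, stood at -0.17 (adjusted p = 0.232; unadjusted p under 0.05 for this 1 gene). In these lists 0 genes also passed by DESeq2, limma with voom and limma on the deposited values. In batch 2 alone, where 13.2% of all genes passed, 1 of 14, 1 of 9, 2 of 22 and 1 of 2 genes passed in the repair, reader, cosubstrate and OGT lists. NEIL3 (0.39, adjusted p = 0.0210), MAT2B (0.49, adjusted p = 0.0106) and IDH1 (0.39, adjusted p = 0.0220) were higher in HHH, and MBD3 (-0.27, adjusted p = 0.0428) and HCFC1 (-0.51, adjusted p = 0.0108) were lower, by edgeR. Of 16 S phase genes, 0 passed in edgeR and 1, RRM2, had an unadjusted p under 0.05 (0.25, adjusted p = 0.0870). DESeq2 called 1 of the 16, also RRM2. DNMT1 is known to follow S phase. The summed level of this list was 2708 to 3392 CPM in general and 2731 to 3187 in HHH. These ranges pool the batches, and of the 16 genes 1 was higher and 6 were lower in batch 2 by edgeR. Whether S phase bears on the DNMT1 values was not tested.

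Some markers of other cells differed between the populations in the fit of both batches, where 5.83% of all genes passed. Their part in the values above was not tested. Of 8 neural markers 5 were tested, and 3 of them were lower in HHH: LHX5 (6.82 to 0.145 CPM), HESX1 (12 to 4.34 CPM) and SOX1 (0.389 to 0.149 CPM), the last of which limma with voom did not call. The summed level of the neural list, mostly NES, was 209 to 284 CPM in general and 134 to 249 in HHH, and 5 of the 8 were under 1 CPM in both populations. Of 7 mesendoderm markers all were under 1 CPM in both populations, with summed levels of 0.766 to 1.48 CPM in general and 0.937 to 2.57 in HHH. The 1 tested, MIXL1, did not pass (0.33, edgeR adjusted p = 0.363). Of 6 trophoblast or amnion markers 5 were under 1 CPM. The 1 tested, KRT7, was lower in HHH (7.86 to 4.54 CPM), with sums for the list of 5.65 to 10.5 CPM in general and 3.46 to 5.53 in HHH. Of 6 fibroblast markers 4 were under 1 CPM, DCN, LUM and COL3A1 among them, and 3 were tested. Of these 1 passed, COL1A1, which was lower in HHH (24.2 to 12.8 CPM). The sums for the list were 116 to 139 CPM in general and 79.5 to 119 in HHH. Among the 9 markers of undifferentiated cells NANOG was higher (0.44, adjusted p = 0.00572) and SOX2 lower (-0.26, adjusted p = 0.0375) in HHH. DESeq2 and limma with voom called both as well, DESeq2 called TDGF1 too, and limma on the deposited values called only SALL4. SOX2 did not pass in batch 2 alone (-0.25, edgeR adjusted p = 0.0856), where 13.2% of all genes passed. Of the 9, 3 were higher there (NANOG, DPPA4 and TDGF1) and 1 was lower (SALL4). Also lower in HHH there were 5 of 7 tested neural and 2 of 3 tested fibroblast markers. So were KRT7 and 1 of 2 tested mesendoderm markers, TBXT (-1.84, adjusted p = 0.00269), and 0 markers of these lists were higher.

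For each tested gene, the genes with the most similar pattern were taken as the 3 with the highest Pearson r of log2 CPM centred within batches, over the 10 libraries and among 12084 genes averaging 5 CPM or more. The points share library and depth, and r is a description. For TET3 they were NAV1 (r = 0.991), AGPAT1 (0.988) and KDM4B (0.987), and for TDG they were RFC2 (0.988), FAM192BP (0.986) and LSM1 (0.984). For TET1 they were ZBED4 (0.971), TRAK1 (0.964) and IGF2R (0.964), and for TET2 YPEL1 (0.962), ZC3H6 (0.950) and STPG1 (0.949). For DNMT1 they were GPATCH8 (0.984), PRRC2C (0.969) and ACIN1 (0.963), for DNMT3A CCAR2 (0.976), ATP6V0E2 (0.960) and NPLOC4 (0.957), and for DNMT3B PELI3 (0.983), ITPRIP (0.976) and EZR (0.975). No member of the group was among the 3 nearest to another member, in a ranking by positive r alone. Between members, r on the same scale ran from -0.88 for TET3 with TDG to 0.76 for TET1 with TET2 and with TET3. TET1 with TDG was at -0.87, and other pairs lay near 0, such as DNMT3A with TDG at 0.045.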

How the data were processed

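The authors deposited whole counts per Ensembl gene without normalization, and a second table of log2 values, a score made by TMM scaling and conversion to RPKM. In the deposited log2 values the batch means of genes counted in every library were equal to within 9.24e-14, so a batch term had been subtracted, and they served only as an alternative and for levels per length. Submitters' processing notes name GRCh37, CASAVA 1.8.2, R 3.2.2 and limma 3.26.9; the aligner, counter and annotation are not given in the sources used here. Symbols, lengths and coordinates came from GENCODE 44 (GRCh38) by Ensembl identifier, with 88.5% matched. Overlapping genes and pseudogenes are uncertain.

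Population, batch and replicate were taken from the sample titles. Genes were kept by filterByExpr (minimum count 10) and tested with the two-sided quasi-likelihood test of edgeR 4.0.16 (R 4.3.3) after TMM scaling (factors 0.832 to 1.18), with batch as an additive term. P-values were adjusted by Benjamini-Hochberg across the whole tested table, and a gene passed at an adjusted p under 0.05. Standard errors were the log2 fold change divided by the square root of F. The same test was run in each batch alone, between batches and for the interaction, and the code was tested on simulated data. The floor and intervals cover counting error or library spread only. No replicate pair was identical within sampling noise (chi-square per degree of freedom of at least 5.77).

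Same-numbered libraries of a batch deviated together from their population means, all with correlations over 0.1. These were 0.113 in batch 1 and 0.239, 0.143 and 0.113 in batch 2, where different numbers gave -0.126 to -0.00512. The deviations of a population's libraries in batch 2 cancel out, so positive same-number values make the others negative on average. The negative values are thus no separate evidence of pairing. The numbers were taken to pair the libraries in the replicate block only, an alternative fit. The main tests had no pairing term, so their p-values do not use the pairing. In batch 1, with 2 libraries of a population, deviations mirror each other and a pair of different numbers also gave 0.113, so that batch does not bear on the pairing. Alternatives were a fit with replicate block, RLE, upper quartile and library-size scaling, other filters, no batch term, DESeq2 1.42.0, limma 3.58.1, removal of trends with GC content and transcript length (splines with 5 degrees of freedom), stricter thresholds and each library left out; the length trend and most settings for batch 2 alone were added with the data in hand. The genes examined and the gene lists were chosen with earlier results of these data known. All genes of the group are named; from each list, the genes that passed, or else the gene with the smallest p.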

Additional observations from a re-analysis of the deposited data

Results flagged for a closer look

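For TET3 and DNMT3B the HHH libraries lay on opposite sides of the general mean in the batches: each HHH library of batch 1 lay above the mean of the general libraries of its batch, and each of batch 2 lay below it. The difference of the log2 change, batch 2 minus batch 1, was -0.74 for TET3 (adjusted p = 0.0816) and -0.38 for DNMT3B (adjusted p = 0.246) in edgeR's interaction test, so neither passed. DESeq2 gave -0.72 with an adjusted p of 0.0162 for TET3. By Dixon's criterion no library stood apart among the 5 of its population in the CPM of any of the 8 genes. That range includes the difference between batches, and the 2 or 3 libraries of a population within a batch are too few for the criterion, so a library apart from its own batch could be missed.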

How the results depend on the processing

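The count of 0 of the 7 genes passing over both batches was the same under all 26 alternatives. The stricter thresholds among them cut the same main fit and could only give 0, so the other 24 bear on the count. In all 24 fits the direction of DNMT1, TET1, TET2, TET3 and TDG was kept, while DNMT3A turned to -0.031 in limma on the deposited values, where the median of all genes also shifted to -0.12, and DNMT3B ran from -0.10 to 0.034 when a library was left out, turning to 0.034 (HHH batch 2 replicate 3 omitted) and to 0.0087 (general batch 2 replicate 2 omitted). The smallest adjusted p for TET3 over both batches was 0.0522, with the replicate block and GC trend removed, against 0.0777 with the replicate block alone (-0.43). The replicate block alone changed no call of these genes over both batches or in batch 2 alone, the comparisons in which it was run. The number of all genes passing, 1373, was 168 with no batch term, 2423 with no filter, 2450 with the replicate block and GC trend removed, 616 at an adjusted p under 0.01 and 701 with a fold over 1.5. It ran from 808 to 2347 when a library was left out (omitting HHH batch 2 replicate 1 gave 831, HHH batch 2 replicate 2 808, HHH batch 1 replicate 3 2347, general batch 2 replicate 1 896 and general batch 2 replicate 3 841). The count of 2 in batch 2 alone was 1 with the GC trend removed and 1 with library size only, and 1 to 2 when a library was left out. The count between batches was 5 to 6 when a library was left out. The interaction count was 1 in DESeq2, and 0 to 0 when a library was left out. Values near zero turned sign: DNMT3A in batch 2 was -0.038 with library size only and -0.0024 to 0.10 when a library was left out, turning only with HHH batch 2 replicate 2 omitted, the DNMT1 interaction was 0.019 with the GC trend removed and -0.30 to 0.12 when a library was left out, and the TET2 interaction was -0.0084 with the CPM filter, -0.12 with the GC trend removed and -0.30 to 0.40 when a library was left out. The cause was not tested. With 2 libraries of a population in batch 1, intervals there were wide, and leaving out 1 of them was not run for that batch alone.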
